A study of Homo sapiens with 12 samples.

Results

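LY6D, LY6E, LY6K, LYPD3, CD59 and PLAUR belong to the Ly6/uPAR family, and they were described across HCT116 colorectal cancer cells and lines recombined from them. The members are all probe sets that the platform annotation gives to one of these symbols, 13 of 54675 probe sets, which stand for 6 of 19775 genes. LY6D drew attention because its difference between HCT116 and the recombined lines was already known, so the levels of the members in HCT116 against those lines are given as a description and support nothing. HCT116, which comes from a human colorectal carcinoma, carries an oncogenic RAS allele. RNA was measured on 12 Affymetrix arrays, 3 for each of HCT116 control cells with 25 ng/ml doxycycline, HCT116 control cells with vehicle, Hke3 and Hkh-2. All cells were grown in the same serum-supplemented medium, and day 3 was the day of harvest of the HCT116 control cells. For Hke3 and Hkh-2 the labels give no vehicle, dose or day, and the methods describe basal culture. So a difference in handling cannot be told apart from a difference between HCT116 and these lines. Hke3 and Hkh-2 are isogenic lines in which homologous recombination changed the oncogenic allele. The methods call that allele deleted and a supplement calls it replaced by the wild-type one. Each is 1 line, so what the recombination did and what is particular to a line cannot be told apart. The sources do not settle whether the control arrays are parental cells or carry a control vector. Conditions were done in triplicate, but whether the 3 arrays of a group are separate cultures is not stated, so the p-values reflect array-to-array spread, possibly technical.

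Ly6/uPAR proteins share a small cysteine-rich fold of finger-like loops, and most of them are held on the outer cell membrane by a glycosylphosphatidylinositol (GPI) anchor. They act as receptors, adhesion molecules or inhibitors at the cell surface. PLAUR is the receptor of urokinase and focuses plasminogen activation on the cell surface, CD59 blocks the last step of the complement membrane attack complex, and LY6E is an interferon-induced surface protein. LY6D and LYPD3 are best known from stratified epithelia, and LY6K from testis and some tumours.

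Values are log2 RMA values, 1 per probe set and array. Groups that average under 6 are called near background here, and where one is compared, the difference from 6 is given as well. Array medians lay between 5.80 and 5.86, and 12852 genes with a mean of at least 6 in at least 1 group were tested. Of the colon epithelium markers, 10 of 11 were at 6 or more in every group, EPCAM among them at 13.1 to 13.2, while LGALS4 was at 4.83 to 5.05. Of the markers of other cell types with a probe set, 1 of 4 for leukocytes, 3 of 5 for fibroblasts and 2 of 4 for endothelium reached 6 in at least 1 group. The leukocyte marker PTPRC was at 3.80 to 3.94 and CD3E at 6.04 to 6.18. The endothelial marker CDH5 was at 3.90 to 4.13 and PECAM1 at 6.56 to 6.86, while VWF was at 6.33 and 6.35 in the HCT116 groups, 5.34 in Hke3 and 5.32 in Hkh-2. Of the fibroblast genes COL1A1 was at 8.19 to 8.43 and DCN at 6.01 to 6.21, and COL3A1 was at 6.73 in Hkh-2 and 4.45 to 4.49 elsewhere. The part of such cells in the results was not tested. Replicate 2 of the vehicle arrays and replicate 3 of Hke3 were unlike the rest of their groups and deviated together (r = 0.683 across genes, which are not independent replicates). Without both of them, the vehicle mean was 10.67 and the Hke3 mean 5.11 for LY6D, 11.10 and 12.86 for CD59, 8.32 and 8.85 for PLAUR, 7.10 and 7.27 for LYPD3, 6.41 and 5.80 for LY6K, and 9.10 and 8.80 for LY6E.

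LY6D, a GPI-anchored protein of keratinocytes, was high in HCT116, near background in Hke3 and little above 6 in Hkh-2. It was at 10.40, 10.69 and 10.83 in HCT116 with doxycycline and at 10.50, 10.79 and 10.83 in HCT116 with vehicle. In Hke3 it was at 5.11, 5.10 and 5.58, and in Hkh-2 at 6.59, 6.49 and 6.04. All 6 HCT116 arrays lay above all 6 arrays of the recombined lines, and the Hkh-2 arrays lay above the Hke3 arrays. The vehicle arrays averaged 10.71 ± 0.18, Hke3 5.26 ± 0.27 and Hkh-2 6.37 ± 0.29 (SD, n = 3 each). The log2 difference of vehicle minus Hke3 was 5.44, or at least 4.71 when Hke3 is set to 6. Vehicle minus Hkh-2 was 4.33, a 20.1-fold higher linear value. As these are extracts of whole cultures, fewer cells with the transcript and less transcript per cell cannot be told apart. One probe set, 206276_at, represents LY6D, so no second probe set was there to set beside it.

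**Figure D1:**
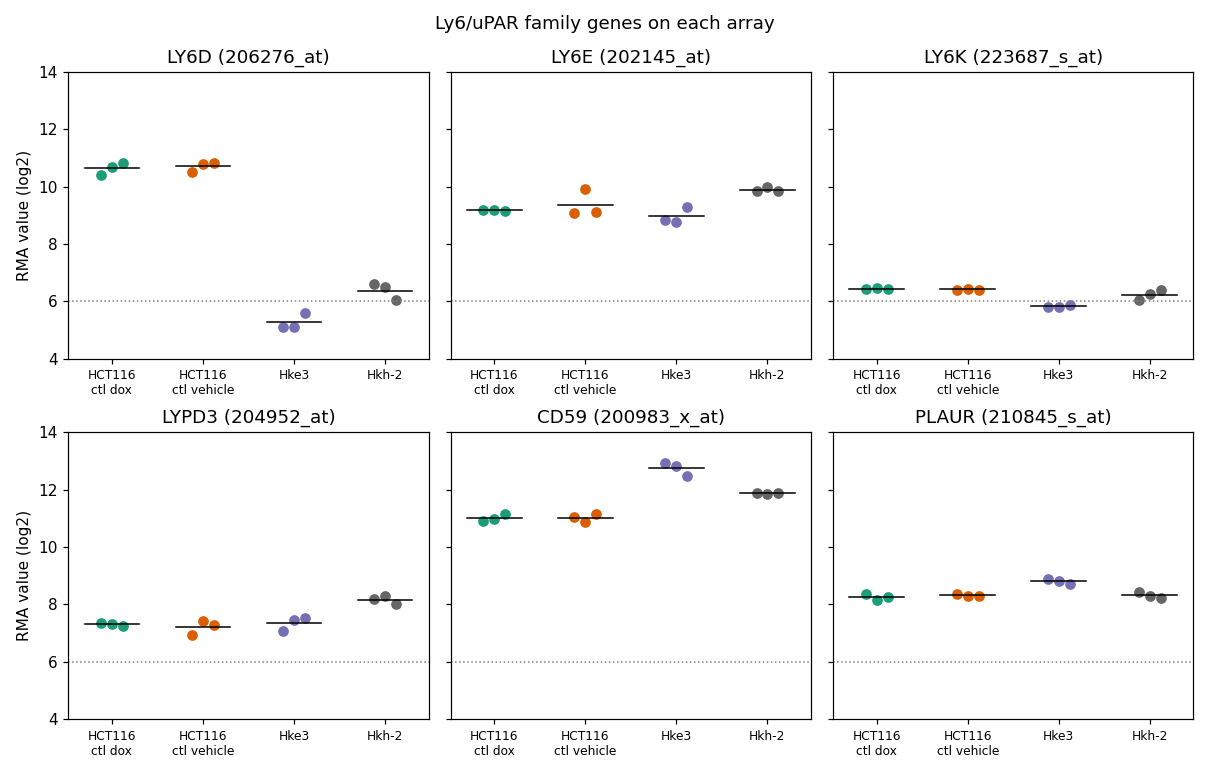
Log2 RMA value of each array (points) and group mean (line) for the probe set that stands for each gene, in HCT116 control doxycycline, HCT116 control vehicle, Hke3 and Hkh-2. The dotted line marks 6, the bound of near background. LY6D lies between 10.40 and 10.83 in HCT116 and between 5.10 and 6.59 in the recombined lines, while CD59 is highest in Hke3, at 12.47 to 12.92, and LYPD3 in Hkh-2, at 8.0 to 8.30.

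LY6K and LY6E lie near LY6D on chromosome 8. Their groups differed far less, but LY6D was chosen for its large difference, so nothing is read from that. LY6K, a family member known from spermatogenesis and as a tumour antigen, stayed close to 6 in every group on probe set 223687_s_at. It was at 6.42, 6.47 and 6.42 in HCT116 with doxycycline and at 6.41, 6.44 and 6.41 with vehicle, against 5.82, 5.79 and 5.87 in Hke3 and 6.05, 6.24 and 6.40 in Hkh-2. The Hke3 arrays were the lowest, and the Hkh-2 arrays lay between, the highest of them just under the lowest vehicle array. Vehicle minus Hke3 was 0.59, or at least 0.42 from 6, and vehicle minus Hkh-2 was 0.19. The other LY6K probe set, 223688_s_at, lay between 3.27 and 3.70 on all 12 arrays and was not tested.

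LY6E, which interferons induce and which affects the entry of several viruses into cells, was well above background in all groups. It was at 9.18, 9.20 and 9.15 in HCT116 with doxycycline and at 9.08, 9.91 and 9.12 with vehicle. In Hke3 it was at 8.85, 8.76 and 9.28, and in Hkh-2 at 9.84, 9.99 and 9.86. Hkh-2 was the highest group, but vehicle replicate 2 reached its range, so the vehicle arrays overlapped both recombined lines. Vehicle minus Hke3 was 0.41 and vehicle minus Hkh-2 was -0.53. Both values rest in part on that array, which deviated from its group mean by 0.54, and 0.692% of genes deviated at least as much on it. Without vehicle replicate 2 they were 0.14 and -0.80.

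LYPD3, also called C4.4A, is a structural homologue of the urokinase receptor found in stratified epithelia and many carcinomas. It was at 7.36, 7.31 and 7.23 in HCT116 with doxycycline and at 6.94, 7.43 and 7.26 with vehicle. Hke3 had 7.08, 7.46 and 7.52, and Hkh-2 had 8.19, 8.30 and 8.0. The Hkh-2 arrays lay above the other 9, which overlapped one another. Vehicle minus Hkh-2 was -0.95 and vehicle minus Hke3 was -0.14.

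CD59, which protects cells from lysis by complement, was lower in HCT116 than in Hke3 on all 5 of its probe sets. Its difference from Hkh-2 was smaller and varied between probe sets. On 200983_x_at, the probe set with its highest mean, it was at 10.89, 10.97 and 11.15 in HCT116 with doxycycline and at 11.03, 10.86 and 11.16 with vehicle. Hke3 had 12.92, 12.81 and 12.47, and Hkh-2 had 11.87, 11.85 and 11.89. The order Hke3, Hkh-2, HCT116 held with no overlap, and vehicle minus Hke3 was -1.72 and vehicle minus Hkh-2 -0.85. Probe sets 200985_s_at and 200984_s_at gave -1.91 and -1.97 against Hke3, and -0.89 and -0.85 against Hkh-2. Probe set 212463_at gave -1.12 against Hke3, while against Hkh-2 it gave -0.05 with overlapping arrays. Probe set 228748_at passed 6 in Hke3 with a mean of 6.79 ± 0.48 (SD, n = 3) and lay under 6 in both HCT116 groups and Hkh-2, so against Hke3 its difference was -1.80, or -0.79 with HCT116 set to 6.

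PLAUR, the urokinase receptor, was higher in Hke3 than in the other 3 groups. On 210845_s_at it was at 8.36, 8.16 and 8.27 in HCT116 with doxycycline and at 8.35, 8.30 and 8.29 with vehicle. Hke3 had 8.88, 8.82 and 8.70, and Hkh-2 had 8.42, 8.31 and 8.22. All 3 Hke3 arrays were above the other 9, among which the groups overlapped. Vehicle minus Hke3 was -0.48, -0.46 and -0.55 on the 3 probe sets of PLAUR, and vehicle minus Hkh-2 was -0.0030, -0.05 and 0.10. PLAUR is among the genes of the study's RAS activity signature. Of the parent signatures, 1 came from HCT116 data of this study and took genes higher in HCT116 than in both recombined lines. The other parents were published signatures, and the genes kept were selected on lung cancer cell lines. Through which parent PLAUR entered is not given here.

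**Figure D2:**
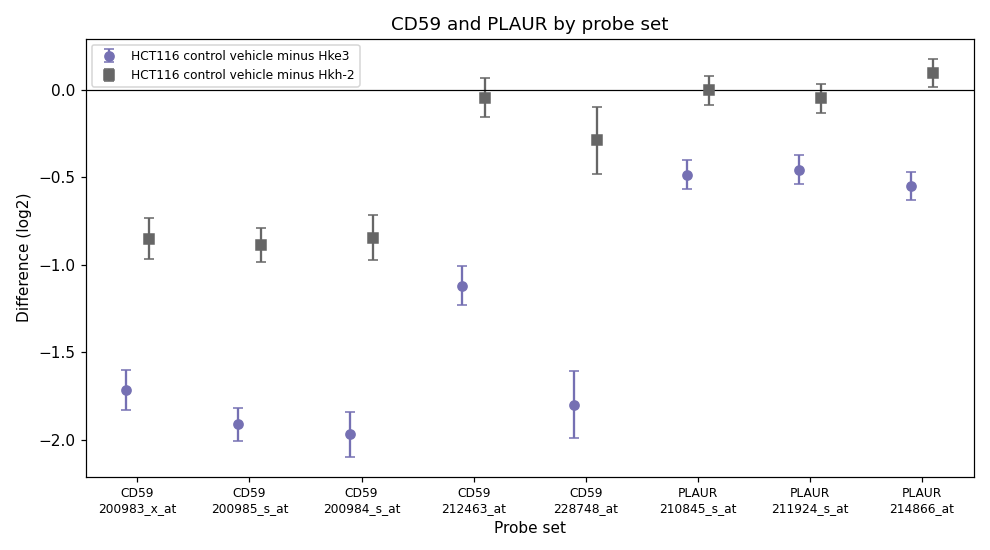
Log2 difference of HCT116 control vehicle minus Hke3 (circles) and minus Hkh-2 (squares) for each probe set of CD59 and PLAUR, with bars of 1 standard error from limma. Every difference from Hke3 is below 0, between -0.46 and -1.97, while against Hkh-2 CD59 ranges from -0.89 to -0.05 and PLAUR from -0.05 to 0.10.

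For CD59 and PLAUR, the members that were highest in Hke3, the DNA upstream of the annotated start is shown for the AP-1 sequence TGANTCA. AP-1, made of FOS and JUN proteins, acts downstream of RAS signalling, and an upstream AP-1 element is known in PLAUR. The sequences are from RefSeq (GRCh38.p14), 250 bases up to the start, and capitals mark each match. TGANTCA reads the same on both strands apart from its middle base, so its matches on the strands coincide. Of the 6 members, 3 had a window, CD59 with 4 starts. CD59 is shown for the one start of 4 with a match, at chr11:33722728-33722977 on the minus strand. PLAUR is shown at chr19:43670170-43670419 on the minus strand.
PLAUR: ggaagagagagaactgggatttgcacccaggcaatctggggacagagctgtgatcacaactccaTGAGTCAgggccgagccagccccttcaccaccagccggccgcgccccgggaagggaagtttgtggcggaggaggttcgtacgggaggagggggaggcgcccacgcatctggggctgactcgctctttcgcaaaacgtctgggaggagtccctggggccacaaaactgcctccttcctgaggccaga
CD59: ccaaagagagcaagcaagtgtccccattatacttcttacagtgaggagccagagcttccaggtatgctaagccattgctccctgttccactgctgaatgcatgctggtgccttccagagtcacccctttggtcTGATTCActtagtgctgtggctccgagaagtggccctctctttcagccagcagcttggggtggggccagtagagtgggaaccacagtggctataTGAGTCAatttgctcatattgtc
The PLAUR window held 1 match, 186 bases before the start. The CD59 window held 2, at 117 and 23 bases before it. The LYPD3 window and the other 3 CD59 windows held none. TGANTCA was in 6.57% of the 35116 windows of this length. That share is per window and is not to be set against the best of 4 starts of CD59. A match is a description of the letters and not of binding. The arrays do not tell from which start CD59 was transcribed.

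Counted with the same threshold as all genes, an adjusted p under 0.05 from limma, vehicle minus Hke3 put 2 members higher (LY6D and LY6K) and 2 lower (CD59 and PLAUR), where 47.8% of the 12852 genes were called, 24.6% higher and 23.2% lower. Vehicle minus Hkh-2 put 1 member higher (LY6D) and 3 lower (LY6E, LYPD3 and CD59), where 36.0% of genes were called, 14.3% higher and 21.7% lower. Nothing is read from these counts, since the members were chosen with the contrasts known. Over 24 alternatives the difference of LY6E lay between -0.80 and -0.38 against Hkh-2 and between 0.14 and 0.57 against Hke3. LY6E was called in 13 of them against Hkh-2 and in 4 against Hke3. Either call depends on the arrays and settings used, and nothing is read from it. Both contrasts share the vehicle arrays.

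The recombined lines differed from each other in all 6 members. Hke3 minus Hkh-2 was -1.11 ± 0.17 for LY6D (standard error, adjusted p = 0.000218 from limma), though LY6D was near background in Hke3 and the difference from 6 is -0.37. LY6E had -0.94 ± 0.19 (adjusted p = 0.00159), and LYPD3 had -0.81 ± 0.14 (adjusted p = 0.000472). LY6K had -0.40 ± 0.08 (adjusted p = 0.00197), or -0.23 from 6. CD59 was higher in Hke3 by 0.86 ± 0.11 (adjusted p = 7.49e-05), and PLAUR by 0.48 ± 0.08 (adjusted p = 0.000426). In each gene the arrays of Hke3 and Hkh-2 did not overlap. In this comparison 39.8% of all genes were called, 16.3% higher and 23.5% lower in Hke3. By probe set, 8 of the 12 tested were higher and 4 lower, beside 37.6% of all probe sets called, 17.7% higher and 19.9% lower. The 8 all belong to 2 genes, CD59 and PLAUR, so they are not separate results. All 5 probe sets of CD59 were higher in Hke3, by 0.86 to 1.51, and all 3 of PLAUR, by 0.41 to 0.65. For 228748_at of CD59, which passed the filter through Hke3 alone, the 1.51 is at least 0.79 when Hkh-2 is set to 6.

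Doxycycline, the inducer used in the study's knockdown lines, was compared with vehicle in control cells. None of the 6 members was called, and limma called 0 of the 12852 genes. At an unadjusted p under 0.05 there were 127 genes (0.988%) and none of the members. That share is lower than evenly spread p-values would give, so this fit may miss differences. The cause was not tested. The differences of doxycycline minus vehicle ran from -0.19 for LY6E to 0.09 for LYPD3, and the arrays of both groups overlapped for every probe set of the members. For LY6D the difference was -0.06, with a 95% interval of -0.43 to 0.30, and for LY6E the interval was -0.60 to 0.21. The intervals span differences of either sign.

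**Figure D3:**
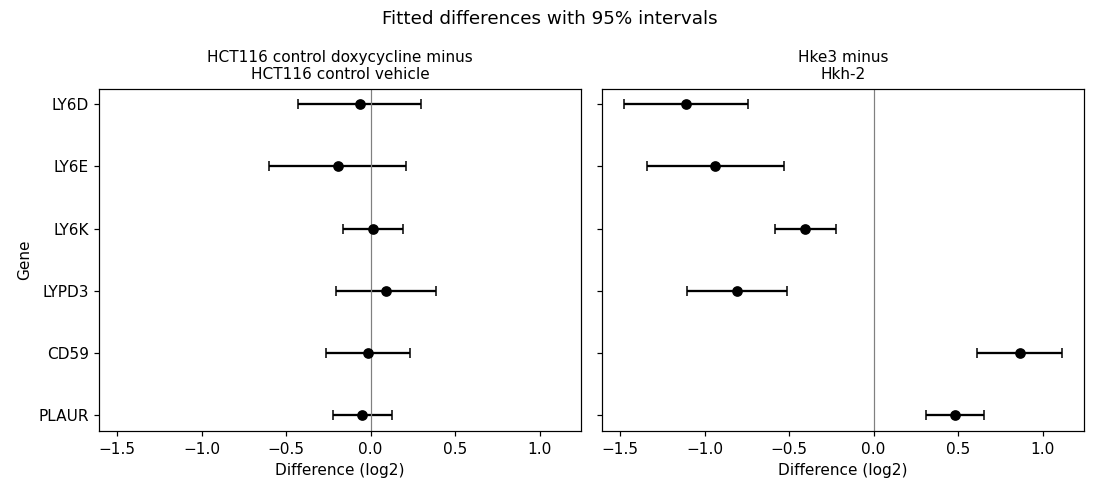
Fitted log2 differences of the members with 95% intervals from limma, for HCT116 control doxycycline minus vehicle (left) and Hke3 minus Hkh-2 (right). On the left every interval spans 0, with differences of -0.19 to 0.09, while on the right LY6D, LY6E, LY6K and LYPD3 lie below 0 and CD59 and PLAUR above it.

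The genes around LY6D are given as a description. LY6D was chosen for its large difference, so smaller differences around it are no result. The 10 genes with a probe set on each side in RefSeq order hold LY6K, 5 genes before, LY6E, 5 genes after, and 18 other genes, of which 9 were tested. Vehicle minus Hke3 ranged from -0.05 to 0.77 over these 9, and 4 were higher in HCT116 (THEM6, ZFP41, LYNX1 and JRK) and 0 lower. Over all genes 24.6% were higher and 23.2% lower. Against Hkh-2, LYNX1 (0.42) and JRK were higher and none was lower, beside 14.3% higher and 21.7% lower over all genes. THEM6 and ZFP41 were lower in Hke3 than in Hkh-2. The family genes PSCA, GML, LY6H and GPIHBP1 of this stretch stayed under 6 in every group. Around PLAUR on chromosome 19, 12 of 20 neighbours were tested. Against Hke3, HCT116 had 2 of them higher and 1 lower, and against Hkh-2, 1 higher and 4 lower. These counts stand beside the same shares of all genes, and nothing is read from them. KCNN4, a potassium channel gene, had the largest differences among them, 0.61 against Hke3 and 1.15 against Hkh-2.

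**Figure D4:**
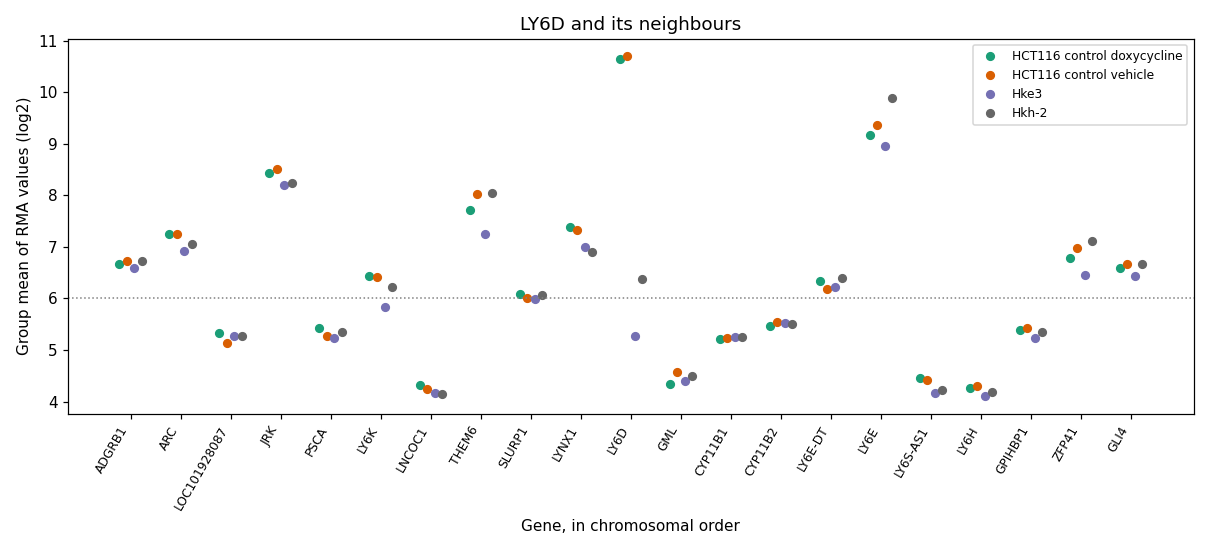
Group means of log2 RMA values (points, in the order doxycycline, vehicle, Hke3, Hkh-2 within a gene) for LY6D and the 10 genes with a probe set on each side, in chromosomal order. The dotted line marks 6. Within LY6D the groups lie from 5.26 to 10.71, while the tested neighbours other than LY6K and LY6E differ between vehicle and Hke3 by -0.05 to 0.77. Levels of different genes come from different probes and are not to be compared.

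Of 30 other Ly6/uPAR family genes, 21 had a probe set and 8 passed the filter. The counts here and in the lists below stand beside the shares of all genes called. Those were 24.6% higher and 23.2% lower against Hke3, and 14.3% and 21.7% against Hkh-2. In Hke3 minus Hkh-2 they were 16.3% and 23.5%. Against Hke3, 3 were higher in HCT116 and 1 lower, with a median of 0.10 beside 0.04 over all genes. LY6G5C (0.62, or at least 0.55 with Hke3 set to 6), LY6G6C (0.37) and LYNX1 (0.34) were higher and LYPD6, a modulator of WNT signalling, was lower (-0.34). Against Hkh-2, LYNX1, a modulator of nicotinic acetylcholine receptors, was higher (0.42), as was LY6G6C (0.23), and LYPD6B was lower (-0.58), with a median of -0.04 beside -0.02. LY6G6C lost this call without any 1 of the vehicle or Hkh-2 arrays, at 0.18 to 0.26, and also without doxycycline replicate 2 or Hke3 replicate 1, leaving 1 family gene higher. LYNX1 turned to -0.05 and -0.09 when probe sets that can match several transcripts were left out, so its direction depends on the probe set. In Hke3 against Hkh-2, LYPD6 was higher (0.31) and LY6G5C (-0.54) and LYPD6B (-0.44) were lower. LY6G5C was near background in Hke3, and with it set to 6 had -0.48. Against Hke3, LY6G5C lost the call without vehicle replicate 2 (0.44) or Hke3 replicate 1 or 2 (0.53 and 0.54), and LYNX1 without vehicle replicate 1 (0.32) or Hke3 replicate 2 (0.23), so that 1 gene was higher without Hke3 replicate 2. Between the lines, LY6G5C lost it without any 1 of Hke3 replicates 1 and 2 and Hkh-2 replicates 2 and 3 (-0.54 to -0.45), and LYPD6 without replicate 1 of Hke3 (0.22) or of Hkh-2 (0.28).

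Of 31 genes that build, attach or trim the GPI anchor, 30 were tested. In HCT116 against Hke3, 13 were lower and 1 was higher, with a median of -0.18 beside 0.04 over all genes. Of all genes, 23.2% were lower and 24.6% higher. Among them PIGK, the catalytic subunit of the transamidase that attaches the anchor, had -0.94, the mannosyltransferases PIGB and PIGV had -0.84 and -0.63, and MPPE1, which trims the anchor, had -0.67. Against Hkh-2, 10 were lower and 2 higher, with a median of -0.13 beside -0.02, where 21.7% of all genes were lower and 14.3% higher. PGAP2, which remodels the lipid of the anchor, had -1.10, PIGB -0.56 and PIGT, another transamidase subunit, -0.53, while PIGL, a deacetylase of an early step, was higher by 0.73. Between the recombined lines, Hke3 had 6 of them higher and 2 lower than Hkh-2, but 10 and 5 without Hke3 replicate 3, and the count lower was 1 without Hke3 replicate 2, Hkh-2 replicate 1 or Hkh-2 replicate 2. Without Hke3 replicate 3, vehicle had 3 higher than Hke3 in place of 1. Without _s_at and _x_at probe sets, 23 were tested and the counts lower in HCT116 were 7 against Hke3 and 5 against Hkh-2.

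Of 18 genes that work with PLAUR in plasminogen activation, 13 were tested. Hke3 had 9 of them higher and 2 lower than Hkh-2, with a median of 0.36 beside -0.06 over all genes. Of all genes, 16.3% were higher and 23.5% lower. PLAU, the urokinase that PLAUR binds, was higher by 1.80 (adjusted p = 1.74e-08 from limma), PLAT, the tissue-type activator, by 0.75, and the integrin subunit ITGB1 by 0.66. SERPINE2, an inhibitor of these proteases, had -0.62, but 0.014 with the mean of its probe sets. Without Hkh-2 replicate 2, the count lower was 1. In HCT116 vehicle against Hke3, 7 were lower and 2 higher, beside 23.2% lower and 24.6% higher over all genes. PLAU had -2.02, ITGAV -1.07, ITGB1 -0.83 and S100A10, a plasminogen receptor subunit, 0.45. Against Hkh-2, 2 were lower and 2 higher, beside 21.7% lower and 14.3% higher over all genes. Without _s_at and _x_at probe sets, 8 were tested, of which 3 were lower in HCT116 than in Hke3 and 5 higher in Hke3 than in Hkh-2.

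Among complement regulators beside CD59, 4 of 11 passed the filter. CD55, which speeds the decay of the complement convertases, was higher in HCT116 by 0.53 against Hke3 and 0.68 against Hkh-2. Without _s_at and _x_at probe sets its difference from Hke3 was 0.22 and not called. Clusterin (CLU) was lower, with log2 differences of -1.0 and -0.41, and lost the call against Hkh-2 without vehicle replicate 1 (-0.30) or 3 (-0.42) or Hkh-2 replicate 1 (-0.35) or 2 (-0.39). CD46, a cofactor for cleavage of complement fragments, had 0.06 and -0.21, neither past the threshold, but with the mean of its probe sets it had 0.22 against Hke3 (adjusted p = 0.0361 from limma) and 0.07 against Hkh-2.

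Genes of stratified epithelium, where LY6D and LYPD3 are best known, did not share 1 direction. Of 27 listed, 12 were tested. In HCT116 against Hke3, 5 were higher and 3 lower, with a median of 0.20 beside 0.04. Of all genes, 24.6% were higher and 23.2% lower. KRT13 (2.68, at least 1.40 with Hke3 set to 6), KRT4 (2.21, at least 1.72) and the protease inhibitor CSTA (1.17) were higher, and KRT15 was lower (-1.68). Against Hkh-2, 2 were higher and 3 lower, with KRT4 at 1.98 (at least 1.72) and TGM1, a transglutaminase of the cell envelope, at 0.84 higher, and KRT15 (-0.88) and PPL (-0.63) lower. KRT13 passed the filter through HCT116 and Hkh-2, and KRT4, at 5.74 in Hkh-2, through HCT116 alone. So the filter favoured the direction of both against Hke3 and of KRT4 against Hkh-2. Of the 10 genes at 6 or more in both vehicle and Hke3, 3 were higher and 3 lower, and of the 10 in both vehicle and Hkh-2, 1 was higher and 3 lower. The keratinocyte marker KRT14 was under 5 in every group, and KRT5 was at 5.79 to 6.50. Of the possible partners of LYPD3, 4 of 7 were tested, of which HCT116 had 3 higher and 1 lower than Hke3. Compared with Hkh-2 it had 2 higher and 0 lower. The laminin receptor subunits ITGB4 and ITGA6 had 1.22 and -0.71 against Hke3, the laminin chain LAMA5 had 0.46 and the galectin LGALS3 had 0.39. Against Hkh-2, ITGA6 had 2.36 and LAMA5 0.41, while ITGB4 (0.42) and LGALS3 (0.17) did not pass the threshold. Only ITGA6 was tested without _s_at and _x_at probe sets.

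Of 20 interferon-induced genes listed with LY6E, 14 were tested. Against Hke3, 9 were lower and 0 higher, and against Hkh-2, 14 were lower and 0 higher, with medians of -0.87 and -1.38 beside 0.04 and -0.02 over all genes. IFIT3, BST2, IFI44, OAS1 and MX2 were under 6 in HCT116 and passed the filter only through a recombined line, so these counts favour that direction. Of the 9 genes at 6 or more in vehicle and in each line, 6 were lower and 0 higher against Hke3 (median -0.82), and 9 were lower against Hkh-2 (median -0.96). Among them IFIT1 had -2.66 and -2.85, and IRF9 had -1.20 and -1.80. IFIT3 had -3.96 and -4.66, or -2.35 and -3.05 with HCT116, which was near background, set to 6. IFI44 and OAS1 were under 6 in both vehicle and Hke3, which leaves no difference from 6 there, and against Hkh-2 they had -0.34 and -1.34 from 6. Hke3 had 11 of the 14 lower and 0 higher than Hkh-2, and 8 of the 11 at 6 or more in both lines. LY6E had 0.41 against Hke3 and -0.53 against Hkh-2, or 0.14 and -0.80 without vehicle replicate 2. The list medians were -0.87 and -1.38, or -0.82 and -0.96 over the genes at 6 or more in both groups compared. In Hke3 minus Hkh-2 LY6E had -0.94, beside a list median of -0.66, or -0.60 over the genes at 6 or more in both lines.

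Pattern likeness was measured by Pearson's r over the 12 arrays, for members whose group means spanned at least 1. The arrays form 4 groups, so r follows the group means and is a description. The genes most like LY6D were PNP (r = 0.996), BMS1 (0.992), EIF4B (0.992), ABHD10 (0.991) and IRX4 (0.990), among 534 genes with r over 0.9. Their means differed less between groups than those of LY6D, which was chosen for its large difference. PNP averaged 11.12 in vehicle, 10.52 in Hke3 and 10.63 in Hkh-2. The genes most like CD59 were LPAR1 (0.996), MAMDC2 (0.995) and CDKN2B (0.995), among 854. MAMDC2 averaged 5.20 in vehicle, 9.93 in Hke3 and 7.57 in Hkh-2. Between members, r was -0.95 for LY6D and CD59 and -0.04 for LY6D and LY6E.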

How the data were processed

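Each of the 4 groups (HCT116 control cells with doxycycline, HCT116 control cells with vehicle, Hke3, Hkh-2) had 3 arrays. For every array the authors deposited log2 values of all probe sets, which their processing notes credit to RMA. Its version, the chip definition and which arrays were normalized jointly are not given in the sources used here. Values of the recombined gene itself are not reported here.

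Of 54675 probe sets, 41097 name a single gene, 1801 several, and 11777 are unnamed here. A match of 41043 by gene ID to RefSeq (GRCh38.p14) gave current symbols. Among probe sets of one gene, that with the highest mean was used, and genes needed a mean of 6 or more in at least 1 group, a filter taken from the paper's work on cell lines. For the 12852 such genes, limma (version 3.58.1, R 4.3.3) fitted 4 group means to all 12 arrays (lmFit, contrasts.fit, eBayes) at a Benjamini-Hochberg adjusted p under 0.05. The procedure was also run on simulated data with independent noise on each array. Arrays that deviate together, as some do here, were not simulated, so nothing is read from that run. The 6 members and the gene lists were chosen with earlier results of these data known, and so was the value of 6 for near background. Of each list up to 4 kept genes with the largest absolute difference in the comparison were named, and of likeness the 5 genes with the highest r for LY6D and 3 for CD59.

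Doxycycline and vehicle arrays of one replicate number deviated together (r = 0.228, 0.212 and 0.453 across genes) and may be paired, though the main fit held no pairing term. Vehicle and Hkh-2 had r of -0.046, 0.422 and 0.337, and vehicle and Hke3 had 0.355, -0.578 and -0.580. The numbers of the recombined lines were not taken as pairs. The replicate block covers all 4 groups, so no fit paired doxycycline and vehicle alone. With 3 arrays a group precision is limited, and 0.1 is the smallest two-sided p an exact test could reach. The alternatives were other summaries of probe sets, filters, normalizations, fits and priors, the replicate block, pooled controls, and leaving out arrays.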

Additional observations from a re-analysis of the deposited data

Results flagged for a closer look

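The members were picked out here because their differences from HCT116 control vehicle were not the same in both recombined lines, by the limma test of Hke3 minus Hkh-2. The log2 difference was -1.11 for LY6D, -0.94 for LY6E, -0.40 for LY6K and -0.81 for LYPD3, all lower in Hke3. It was 0.86 for CD59 and 0.48 for PLAUR, both higher in Hke3. In this comparison 39.8% of all genes were called. LY6D and LY6K averaged under 6 in Hke3, and the differences from 6 were -0.37 and -0.23.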

How the results depend on the processing

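In Hke3 minus Hkh-2, LY6D, LY6E, LYPD3, CD59 and PLAUR kept the call in all 23 alternatives and LY6K in the 20 in which it was tested. No member was called for doxycycline minus vehicle in any alternative, and there the range of every member's difference spanned 0, as did that of PLAUR against Hkh-2 (-0.05 to 0.10). CD59 against Hkh-2 had -0.05 without probe sets ending in _s_at or _x_at. Against Hke3, 1 member was higher in place of 2 with the mean of probe sets, without _s_at and _x_at probe sets and with a minimum mean of 8, since LY6K was not tested there. Against Hkh-2, 2 members were higher in place of 1 with vehicle and doxycycline arrays pooled and without Hkh-2 replicate 3, where LY6K had 0.20 and 0.28.

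Testing every probe set called 5645 higher and 5296 lower against Hke3 (genes 3159 and 2987), 4054 and 4599 against Hkh-2 (genes 1842 and 2785), and 4171 and 4677 in Hke3 minus Hkh-2 (genes 2100 and 3018), as more features were tested. SERPINE2 reversed with the mean of probe sets, to 0.053 against Hkh-2 and 0.014 in Hke3 minus Hkh-2. LYNX1 reversed without _s_at and _x_at probe sets, to -0.053 against Hke3 and -0.087 against Hkh-2. The cause was not tested. Of the counts in the gene lists, 1216 stayed within 1.5 times and 100 did not. Those that stayed include the counts of doxycycline minus vehicle, where no gene was called in any setting.

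When single arrays were left out, 2 to 3 members were higher and 2 lower against Hke3, 1 to 2 higher and 2 to 3 lower against Hkh-2, and 2 higher and 4 lower in Hke3 minus Hkh-2. With the replicate block, a pairing term over all 4 groups, 2992 genes were higher and 2893 lower against Hke3. There 2 members were lower against Hkh-2 in place of 3, as LY6E lost the call. LY6G6C against Hkh-2 (0.23, adjusted p = 0.0613 from limma) lost it too, and 0 genes were called for doxycycline minus vehicle. Of the 12 arrays, 6 correlated best with an array of their own number. Probe sets near background, such as those of LY6K, limit what a difference can show.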
